A study of Mus musculus with 2 samples.

Results

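Donor CD8 T cells that still held Tcf7 transcripts and little Gzma were described in the spleens of mice after allogeneic hematopoietic cell transplantation (allo-HCT). A barcode was kept as a cell with 500 to 7500 genes and at most 15% of its UMIs (unique molecular identifiers, each 1 counted transcript) from mitochondrial genes. It was a CD8 T cell with at least 3 UMIs of the T cell receptor and CD3 genes Cd3d, Cd3e, Cd3g, Trac, Trbc1 and Trbc2, at least 2 of Cd8a and Cd8b1, and 0 of Cd4 and Foxp3. Within these, the cells with at least 2 Tcf7 UMIs, under 20 Gzma UMIs per 10000, under 5 UMIs of Ifitm1, Ifitm2 and Ifitm3, under 20 per 10000 of Ccl1, Ccl3, Ccl4 and Xcl1, and under 3 UMIs of the cycling genes Mki67, Top2a, Cdk1 and Pclaf were selected on these UMI counts. They are called Tcf7-expressing cells here. There were 140 of them, 46 on day +7 and 94 on day +14, among 11406 CD8 T cells and 14973 cells in all.

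Lethally irradiated BALB/c recipients (H-2d) were given T cell-depleted bone marrow and splenic T cells, naive per the labels, of WT C57BL/6 donors (H-2b), a fully MHC-mismatched model of acute graft-versus-host disease (aGvHD). Donor T cells were sorted from pooled recipient spleens as CD45+ H2Kb+ H2Kd- TCRβ+ and sequenced as 1 single-cell RNA-seq (scRNA-seq) library on day +7 and 1 on day +14, and both libraries carry the label PBS. Library titles alone give the days, since the sort description names day +7 for both, and every comparison of the days rests on these titles. No library of donor cells before transfer, of a syngeneic transplant or of a treated recipient was used here. With 1 library of pooled animals a day, the spread between mice is unknown, no test was made, and every interval below is a 95% interval that covers counting error only.

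Tcf7 encodes TCF-1, a transcription factor of the Wnt pathway that naive, central memory and stem-like CD8 T cells keep and that terminal effector cells lose. In chronic stimulation, CD8 T cells that keep TCF-1, often with Slamf6, Id3 and the follicular homing receptor Cxcr5 and with little Havcr2 (TIM-3), are known as the cells that renew the response, while PD-1 and TOX can be present in them. Naive and central memory cells add Ccr7, which brings cells into lymph nodes, and Il7r, the receptor chain for the survival cytokine IL-7.

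The Tcf7-expressing cells were not shallow. Their median depth was 9148 UMIs and 2267 genes on day +7, against 9461 UMIs in all CD8 T cells, and 7322 UMIs and 2160 genes on day +14, against 8830. Single cells ranged from 2639 to 17811 UMIs on day +7 and from 1968 to 18458 on day +14, and the median mitochondrial share was 3.61% and 3.72%. Summed, they gave 411801 and 759330 UMIs, so that a level of 10 CPM (UMIs of a gene per 1000000 UMIs) stood for 4.12 and 7.59 UMIs. Depth differed from that of the cells they are set beside below. The 746 and 1764 cells that passed every other part of the rule but had 0 or 1 Tcf7 UMI (Tcf7-low cells) had median depths of 6639 and 5370 UMIs, and the 833 and 106 CD8 T cells with at least 20 Gzma UMIs per 10000 that passed the remaining gates (Gzma-high cells) had 6332 and 4594. The libraries shared 20 cell barcodes, none of them of a Tcf7-expressing cell.

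The CD3 and CD8 genes were part of the rule, so their levels describe the cells and check nothing. Cd3d, a CD3 chain, was at 1610 CPM on day +7 and 1534 on day +14, Cd8a at 240 and 400, and Cd8b1 at 656 and 574, with a Cd8b1 UMI in 44 of 46 and 91 of 94 cells. Of the defining genes of other cells, Cd79a and Ms4a1 (B cells), Ncr1 and Klrb1c (NK cells), Zbtb16 and Trdc (innate-like and γδ T cells), Csf1r (macrophages) and Pf4 and Ppbp (platelets) were at 0 UMIs on both days. Other genes of these lists were present. Genes at 0 UMIs on day +7 and day +14 were 3 and 3 of 6 in the B cell list and 4 and 1 of 7 in the myeloid list. In the list of NK-type and innate-like genes they were 5 and 4 of 8. The summed B cell list was at 228 CPM (184 to 279) on day +7 and 453 (406 to 504) on day +14, against 214 and 152 in Tcf7-low cells, and most of it was the immunoglobulin genes Ighm and Igkc. The summed myeloid list was at 38.9 and 59.3 CPM against 57.4 and 79.6 in Tcf7-low cells, the erythroid list at 14.6 and 14.5 against 7.54 and 25, the list of NK-type and innate-like genes at 31.6 and 34.2 against 147 and 94.5, the CD4 T cell list, whose Cd4 and Foxp3 the rule set to 0, at 12.1 and 5.27 against 20.5 and 12.8, and the platelet list at 0. The part of free RNA or of doublets in these values was not tested.

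The cells lay close to the threshold that chose them. Exactly 2 Tcf7 UMIs were found in 23 cells on day +7 and 40 on day +14, and the highest counts were 7 and 10. Outside the threshold, 155 and 231 CD8 T cells had 1 Tcf7 UMI, and 5358 and 5321 had none. Gzma had 0 UMIs in 30 and 88 cells and highest values of 15.7 and 2.44 per 10000 on the 2 days, against the limit of 20, and the gate on Gzma alone kept out 2 cells on day +7 and 0 on day +14. Among the 116 and 225 CD8 T cells with at least 2 Tcf7 UMIs, the cycling gate left out most: 58 on day +7 and 128 on day +14 failed it, 41 and 119 of them failing nothing else. The Ifitm gate was failed by 21 and 2, the Gzma gate by 10 and 3 and the chemokine gate by 2 and 7.

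The share of the CD8 T cells was higher on day +14. Tcf7-expressing cells were 0.817% of the CD8 T cells on day +7 (0.599 to 1.09, 46 of 5629) and 1.63% on day +14 (1.32 to 1.99, 94 of 5777). With each cell thinned to 4000 UMIs before the rule was applied, the shares were 0.337% (0.193 to 0.547) and 1.13% (0.852 to 1.46). Counting every CD8 T cell with at least 2 Tcf7 UMIs, cycling or not, they were 2.06% (1.71 to 2.47) and 3.89% (3.41 to 4.43). No erythroid-like barcode held a Tcf7 UMI, 0 of 77 on day +7 and 0 of 19 on day +14, which allows shares of up to 4.68% and 17.6% (exact binomial upper limits), at median depths of 31364 and 2242 UMIs.

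The order of the days depended on the denominator. Among CD8 T cells that passed every gate other than Tcf7, which leaves out the Gzma-high cells frequent on day +7, the share was 5.81% on day +7 (4.28 to 7.67, 46 of 792) and 5.06% on day +14 (4.11 to 6.16, 94 of 1858). After thinning, that order turned, with 1.79% (1.02 to 2.88) and 2.92% (2.21 to 3.77). The intervals overlapped in both forms, so no order of the days was read from this denominator.

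**Figure D1:**
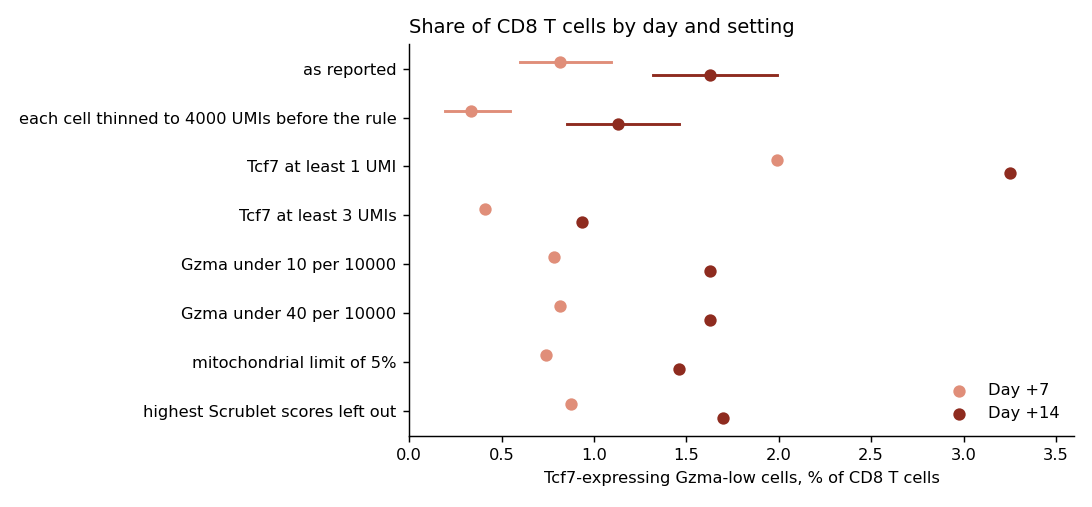
Tcf7-expressing Gzma-low cells as a percentage of all CD8 T cells (horizontal axis) on day +7 (light) and day +14 (dark), under the rule as reported and under alternatives. Lines on the upper pair of settings are exact 95% binomial intervals, the lower settings are drawn without them, and in all 8 settings the point of day +14 lies to the right of that of day +7, as in 0.817% and 1.63% for the rule as reported.

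Next to Tcf7-low cells of the same gates, the Tcf7-expressing cells held more transcript of the genes that travel with Tcf7. Tcf7 itself, the gene of the rule (chr11:52252371-52283014, minus strand, mm10), was at 340 CPM (286 to 401) on day +7 and 398 (354 to 445) on day +14. Id3, an inhibitor of E proteins that marks memory precursors (chr4:136143497-136145755, plus strand), was at 214 CPM (171 to 263) on day +7 and 165 (137 to 196) on day +14, against 33.2 and 14.2 in Tcf7-low cells and 2.38 and 1.87 in Gzma-high cells. On the log2 scale with 1 CPM added, Id3 was higher than in Tcf7-low cells by 2.65 and 3.44. Slamf6, a SLAM family receptor of TCF-1+ progenitors (chr1:171917515-171953170, plus strand), was at 418 CPM (358 to 485) and 406 (362 to 454), against 139 and 80.9 in Tcf7-low and 80.8 and 37.5 in Gzma-high cells. Both genes were thus ordered in the same way on both days, highest in the Tcf7-expressing and lowest in the Gzma-high cells, with intervals that did not overlap between Tcf7-expressing and Tcf7-low cells.

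Low genes aside (under 50 CPM in both groups on either day), Id3 had the highest ratio to Tcf7-low cells. It was followed by Rgs10, a regulator of G protein signalling, at 265 CPM (217 to 319) on day +7 and 205 (174 to 240) on day +14 against 49.3 and 40.6. Adk, adenosine kinase, stood at 102 and 71.1 CPM against 24.7 and 18.7. Asap1, an Arf GTPase-activating protein, was at 80.1 and 161 CPM against 24.5 and 47.3, and Tbc1d4, a Rab GTPase-activating protein of glucose transporter traffic, at 53.4 and 144 against 13.1 and 46.2. The order went on with Slamf6, then Sesn3, a sestrin that restrains mTORC1, at 58.3 and 100 CPM against 22.2 and 38.7. Tespa1, a T cell receptor signalling adaptor of thymocytes, was at 82.6 and 65.8 CPM against 32.5 and 17.4, Inpp4b, a phosphoinositide phosphatase, at 131 and 166 against 37.1 and 74.0, and Farsb, a subunit of the phenylalanine tRNA synthetase, at 72.9 and 171 against 33.6 and 67.9.

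Of 6061 genes compared on both days, 32 were at least 2-fold higher than in Tcf7-low cells on each day (0.528% of the genes) and 47 at least 2-fold lower (0.775%). The rule chose the cells on Tcf7 in these same libraries, so these counts and ratios describe the cells and test nothing. Of the list of naive and stem-like memory genes, 15 could be compared on both days, of which 12 were higher on both days and 4 of those at least 2-fold, with a median log2 ratio of 0.81 on day +7 and 0.78 on day +14 against -0.06 and -0.09 over all genes.

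**Figure D2:**
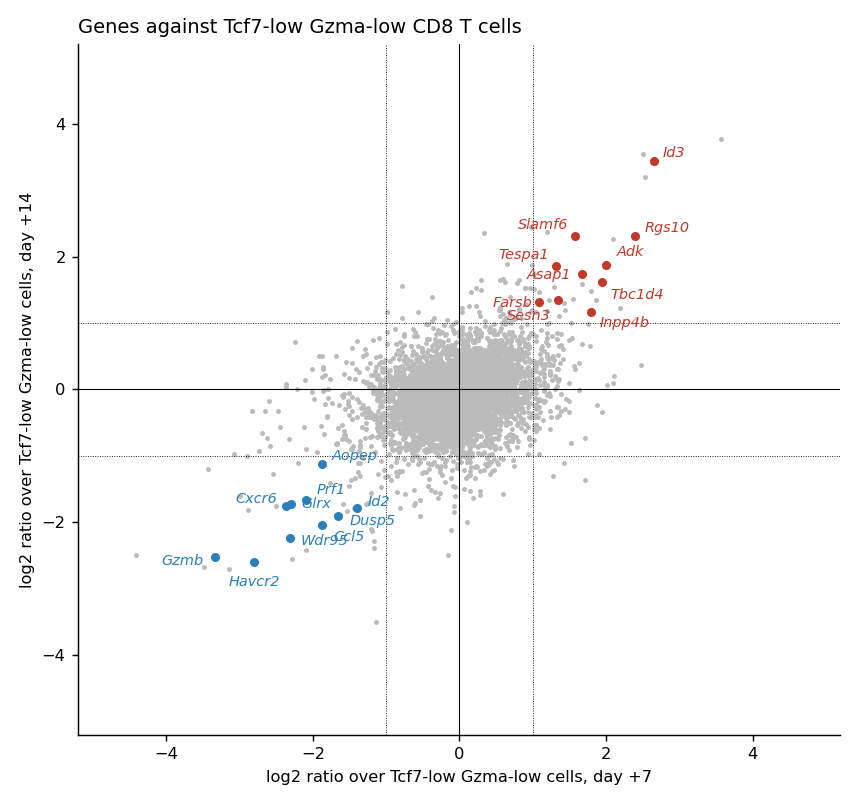
Each point is 1 of 6061 genes, with its log2 ratio of Tcf7-expressing over Tcf7-low Gzma-low CD8 T cells on day +7 (horizontal) and on day +14 (vertical), 1 CPM added, and dotted lines at 2-fold. Red and blue points are the 10 highest and 10 lowest genes by the naming rule, among which Id3 stands at 2.65 and 3.44 and Gzmb at -3.34 and -2.53.

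Ccr7 and Il7r were higher too, and Lef1 in CPM. Ccr7 (chr11:99144196-99155077, minus strand) was low throughout, at 31.6 CPM (16.8 to 54.0, 13 UMIs) on day +7 and 11.9 (5.42 to 22.5, 9 UMIs) on day +14, against 4.64 and 2.75 in Tcf7-low cells. Il7r (chr15:9505788-9530176, minus strand) was at 197 CPM (156 to 244) and 90.9 (70.7 to 115), against 99.3 and 15.9. Lef1, the partner factor of TCF-1 (chr3:131110471-131224356, plus strand), was at 99.6 CPM (71.4 to 135) and 130 (106 to 159), against 67.4 and 54.7. By cells at 4000 UMIs, Lef1 was found on day +7 in 23.3% (11.8 to 38.6) against 23.2% of Tcf7-low cells, and on day +14 in 30.8% (21.5 to 41.3) against 18.5%.

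In S1pr1, Klf2 and Cd27 of the naive and stem-like list the order of the groups turned between the days or the levels lay close. S1pr1, the receptor for exit from lymphoid tissue, was at 112 CPM on day +7 and 68.5 on day +14, against 134 and 49.4 in Tcf7-low cells. Klf2, the factor that drives S1pr1, was at 529 and 417 CPM against 640 and 291. Cd27, a costimulatory TNF receptor, was at 272 and 404 CPM against 273 and 289. Bcl2, the survival protein, was higher than in Tcf7-low cells on both days, at 260 and 227 CPM against 114 and 132. Igfbp4 had 0 UMIs on both days.

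**Figure D3:**
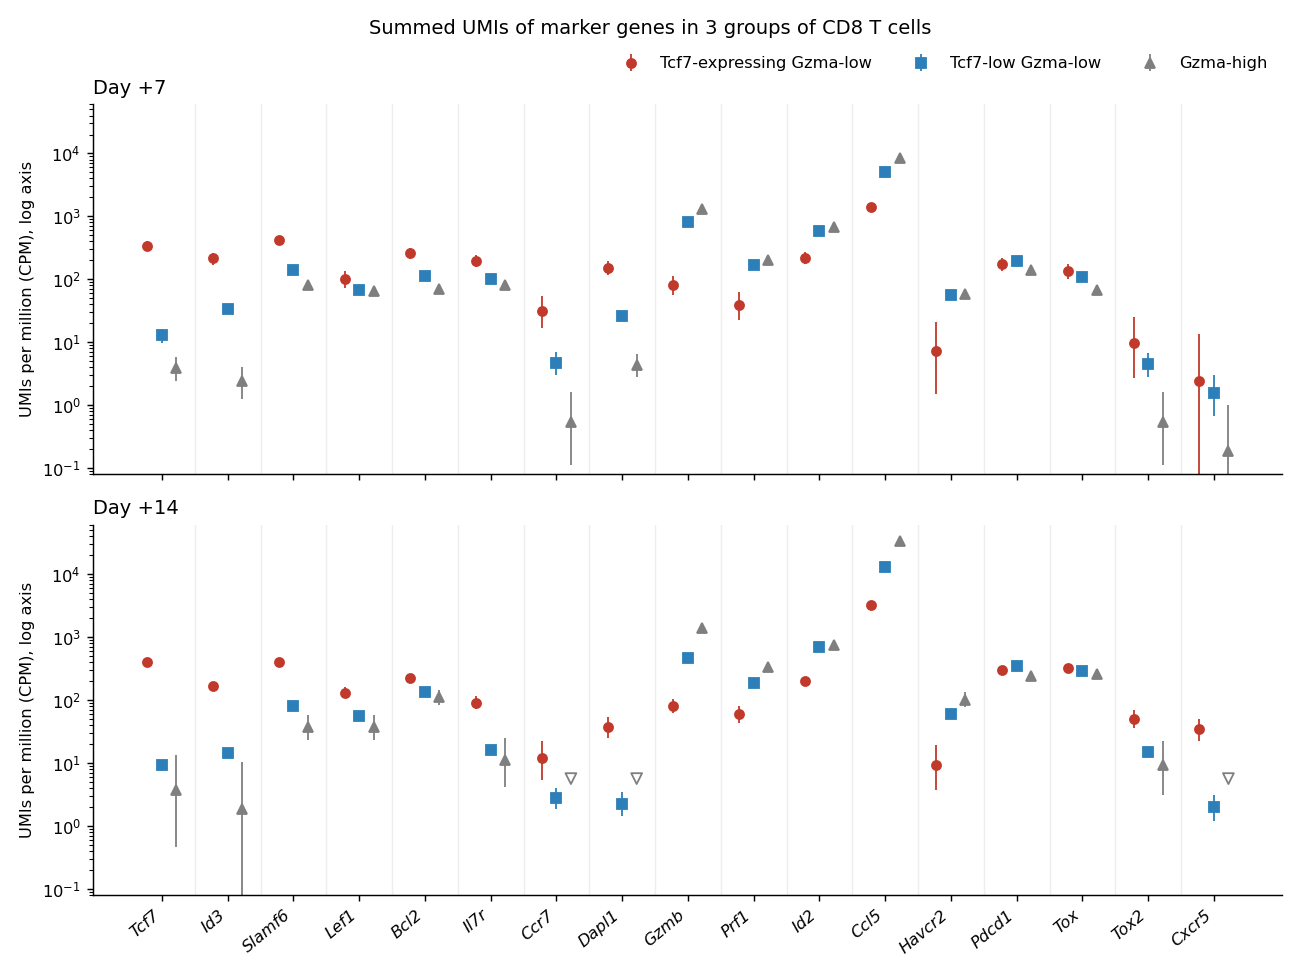
Summed UMIs as CPM (log axis) of 17 marker genes in Tcf7-expressing (red circles), Tcf7-low Gzma-low (blue squares) and Gzma-high (grey triangles) CD8 T cells on day +7 (upper panel) and day +14 (lower panel), with exact 95% Poisson intervals. Open triangles stand for a group with 0 UMIs and are drawn at the CPM of 3 UMIs, and Id3 is at 214 and 165 CPM in red against 33.2 and 14.2 in blue, while Gzmb is at 80.1 and 80.3 against 821 and 470.

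Genes of cytotoxic effector cells were at low levels. Gzmb, granzyme B (chr14:56258838-56262260, minus strand), which the rule did not use, was at 80.1 CPM on day +7 (55.2 to 113, 33 UMIs in 14 cells) and 80.3 on day +14 (61.4 to 103, 61 UMIs in 13 cells). It was at 821 and 470 CPM in Tcf7-low and at 1314 and 1415 in Gzma-high cells. Prf1, perforin, was at 38.9 and 59.3 CPM against 169 and 189 in Tcf7-low cells. Of the 12 cytotoxic genes compared, none was higher than in Tcf7-low cells on both days, 11 were lower on both days and 5 at least 2-fold lower, with medians of -1.02 and -0.77. Of all 6061 genes, 0.775% were at least 2-fold lower on both days. Levels were not uniform within this list: Nkg7, a granule membrane protein, was at 1389 and 1596 CPM against 2301 and 3015, Klrd1 at 313 and 304 against 473 and 411, and Gzmc and S1pr5 were at 0 UMIs on both days.

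Gzmb and Prf1 were among the 10 lowest ratios, and the others are given here. Havcr2, the inhibitory receptor TIM-3, had 3 UMIs (7.29 CPM) on day +7 and 7 UMIs (9.22 CPM) on day +14, against 56.6 and 60.8 CPM in Tcf7-low cells. Ccl5, a chemokine of effector and memory cells, was at 1387 and 3176 CPM against 5056 and 13081, and Cxcr6, a receptor of tissue-resident effector cells, at 53.4 and 151 against 277 and 517. Id2, the counterpart of Id3 in effector cells, was at 219 CPM (176 to 269) and 199 (168 to 233) against 579 and 684. The last 4 were Wdr95, Glrx (glutaredoxin), Dusp5 (a phosphatase of ERK) and Aopep (an aminopeptidase), each at 11.9 to 51.4 CPM in the Tcf7-expressing cells and at 59.5 to 113 CPM in Tcf7-low cells.

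Id3 led against Gzma-high cells too, a comparison that shares the Tcf7-expressing cells with the one before. There 81 of 6029 genes (1.34%) were at least 2-fold higher on both days and 95 (1.58%) at least 2-fold lower. Among the 10 highest were Smco4, at 75.3 and 61.9 CPM against 22.1 and 18.7, and Crtam, an adhesion receptor of activated CD8 T cells, at 63.1 and 88.2 against 20.1 and 20.6, beside Id3, Rgs10, Slamf6, Adk, Asap1, Tbc1d4, Inpp4b and the gene 2310001H17Rik. Among the 10 lowest was the inflammatory chemokine receptor Ccr2, with 3 and 2 UMIs against 163 and 67.5 CPM. Klrg1, a receptor of terminal effector cells, had 1 and 8 UMIs (2.43 and 10.5 CPM) against 72.4 and 124 CPM, and Fcer1g, an Fc receptor chain of innate-like effector cells, was at 19.4 and 10.5 CPM against 146 and 75.

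Growth and energy genes are read against all 6061 genes, of which 3310 were lower than in Tcf7-low cells on day +7 and 3577 on day +14, with medians of -0.06 and -0.09. Of 84 cytosolic ribosomal protein genes, 76 were higher than in Tcf7-low cells on both days and 1 lower, with medians of 0.27 and 0.26. The ribosomal share of the UMIs summed over the cells was 37.8% on day +7 and 35.9% on day +14, against 31.3% and 30.1% in Tcf7-low cells. Of 13 mitochondrially encoded genes of oxidative phosphorylation (OXPHOS), 12 were higher on both days, with medians of 0.37 and 0.44. The median mitochondrial share of a cell's UMIs, also read as a sign of cell quality, was 3.61% and 3.72% against 2.71% and 2.56% in Tcf7-low cells, and its part in these ratios was not tested. Of 77 nuclear OXPHOS genes 55 were lower and 7 higher on both days, with medians of -0.22 and -0.12, the latter near that of all genes. The glycolysis list had medians of -0.01 and 0.08. Cell cycle genes that the rule did not count had medians of -0.46 and -1.16, with 9 of 14 lower and 5 higher on day +7 and 14 of 14 lower on day +14, although the rule had already held 4 other cycling genes low in both groups.

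Levels differed along the number of Tcf7 UMIs, also below the threshold. In cells of the same gates with 0, 1, 2 and at least 3 Tcf7 UMIs, Id3 was at 20.3, 155, 171 and 253 CPM on day +7 and at 7.40, 124, 114 and 201 on day +14. Slamf6 was at 127, 253, 362 and 469 CPM on day +7 and at 67.6, 295, 297 and 484 on day +14. Gzmb ran the other way, at 890, 165, 80.5 and 79.8 CPM on day +7 and at 484, 230, 136 and 40.7 on day +14. The step from 0 to 1 UMI, which the rule does not use, was in CPM the largest of the 3 for Id3 and Gzmb on both days. In these genes, cells with 1 UMI were nearer in CPM to those with 2 UMIs than to those with 0. Lef1 went otherwise, at 68.0, 62.2, 90.6 and 108 CPM on day +7 and at 53.2, 78.8, 126 and 133 on day +14. For Lef1, cells with 1 UMI were nearer to those with 0 on both days. As a ratio, the step of Gzmb on day +14 was larger from 2 to at least 3 UMIs. Median depth moved along with it, from 6614 to 9329 UMIs on day +7 and from 5356 to 7153 on day +14 between the first and last class, and its part in the gradient was not tested. Tox and Pdcd1 had no such order, with Tox at 111, 84.3, 146 and 122 CPM on day +7 and at 284, 354, 300 and 330 on day +14.

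Within the Tcf7-expressing cells, the days were compared over the 6646 genes that reached 10 CPM on average. On day +14, 744 genes (11.2%) were at least 2-fold higher and 213 (3.20%) at least 2-fold lower than on day +7. The median log2 ratio of all genes was 0.14, with 4048 genes higher and 2598 lower. When the libraries were scaled to a median ratio of 0, 500 of 6496 genes were at least 2-fold higher and 280 lower, so counts for gene lists are read against that shift.

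**Figure D4:**
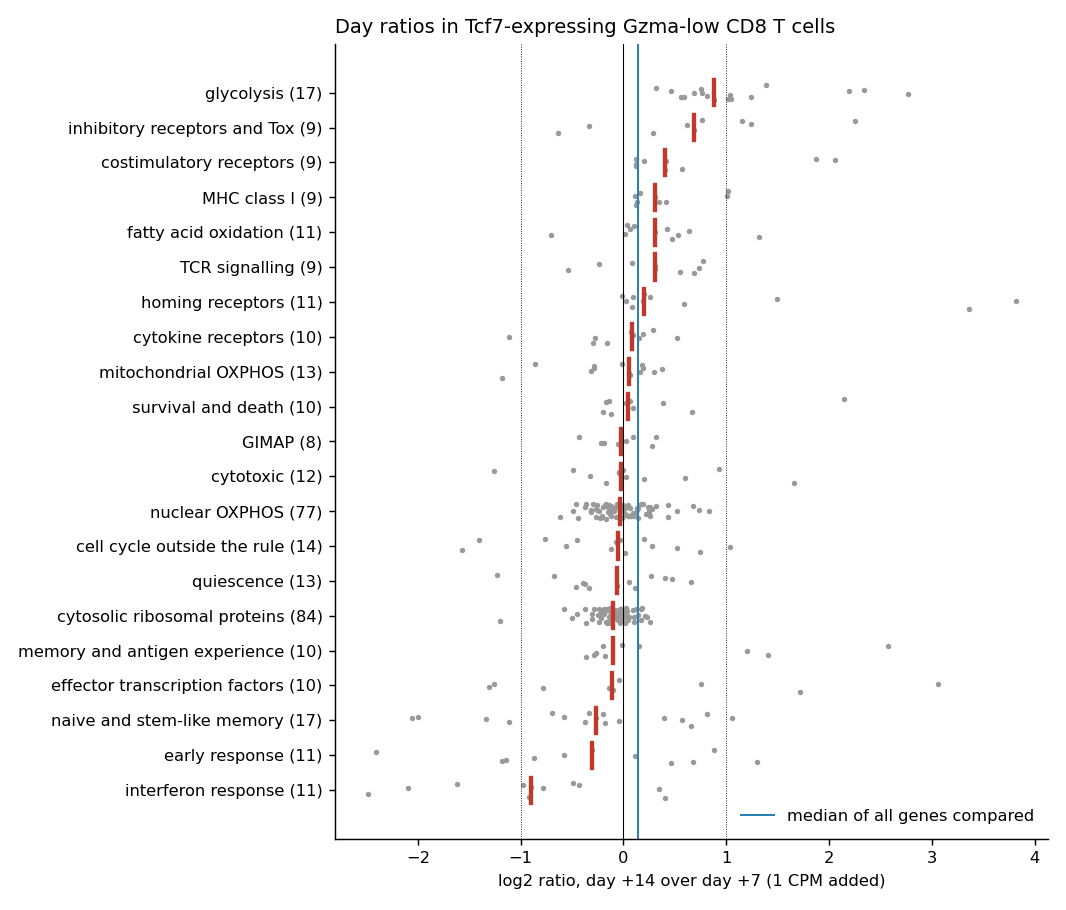
Log2 ratio of day +14 over day +7 in Tcf7-expressing cells, 1 CPM added, for each compared gene (grey points) of the 21 lists with at least 5 such genes, with the number compared in brackets. Red bars are list medians, from 0.88 for glycolysis to -0.90 for the interferon response, the blue line is the median of all 6646 genes (0.14) and dotted lines mark 2-fold.

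Slamf6, Id3 and Lef1 differed between the days by less than 2-fold. Slamf6 differed by -0.04 on the log2 scale (-0.32 to 0.24, the interval here and below being that of the plain ratio, without the 1 CPM added), Id3 by -0.37 (-0.78 to 0.03), and Lef1 by 0.39 (-0.15 to 0.95). These 3 intervals held 0 and lay within 2-fold in either direction, as far as counting error goes. Tcf7 itself differed by 0.23 (-0.07 to 0.53), a value that the rule used. Dapl1, Ccr7 and Il7r of the naive and stem-like list were lower on day +14. Dapl1, a gene of naive and early memory CD8 T cells (chr2:59484653-59505020, plus strand), was lower by 2.0 on the log2 scale (-2.73 to -1.36), Ccr7 by 1.34 (-2.82 to -0.07) and Il7r by 1.11 (-1.60 to -0.63). Of the 17 genes of the naive and stem-like list compared, 12 were lower on day +14, of which 4 at least 2-fold, these 3 included. Of all 6646 genes, 2598 were lower and 3.20% at least 2-fold lower. The other 5 genes of the list were higher, of which Bach2, a repressor of effector genes, at least 2-fold (12.1 and 26.3 CPM). The list median was -0.27. It was -0.36 in Tcf7-low cells, where Dapl1 and Il7r were also lower on day +14. In Gzma-high cells it was -0.00, with 8 genes higher and 9 lower.

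Shares of thinned cells, free of the weight of high-count cells, were also lower on day +14 for Il7r, Ccr7 and Dapl1, with overlapping intervals. For Slamf6 and Id3 the thinned shares were higher on day +14, where the CPM were lower, and the intervals overlapped too. At 4000 UMIs a cell, which 43 of 46 and 91 of 94 cells reached, an Il7r UMI was found in 44.2% of cells (29.1 to 60.1) on day +7 and in 20.9% (13.1 to 30.7) on day +14. Slamf6 was found in 69.8% (53.9 to 82.8) and 76.9% (66.9 to 85.1), and Id3 in 34.9% (21 to 50.9) and 41.8% (31.5 to 52.6), against 37.5% and 23.3% for Slamf6 and 6.48% and 3.29% for Id3 in Tcf7-low cells. Ccr7 was found in 9.30% (2.59 to 22.1) and 4.40% (1.21 to 10.9). Of the thinned erythroid-like barcodes, 0 of 63 on day +7 and 0 of 6 on day +14 held a UMI of Il7r, Slamf6, Id3, Ccr7 or Dapl1. This allows up to 5.69% and 45.9%, so the background of day +14 is not bounded below the shares of Il7r, Id3, Ccr7 and Dapl1 there. Without thinning, the shares were 58.7% and 28.7% for Il7r, 87.0% and 81.9% for Slamf6, 58.7% and 56.4% for Id3 and 17.4% and 8.51% for Ccr7.

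**Figure D5:**
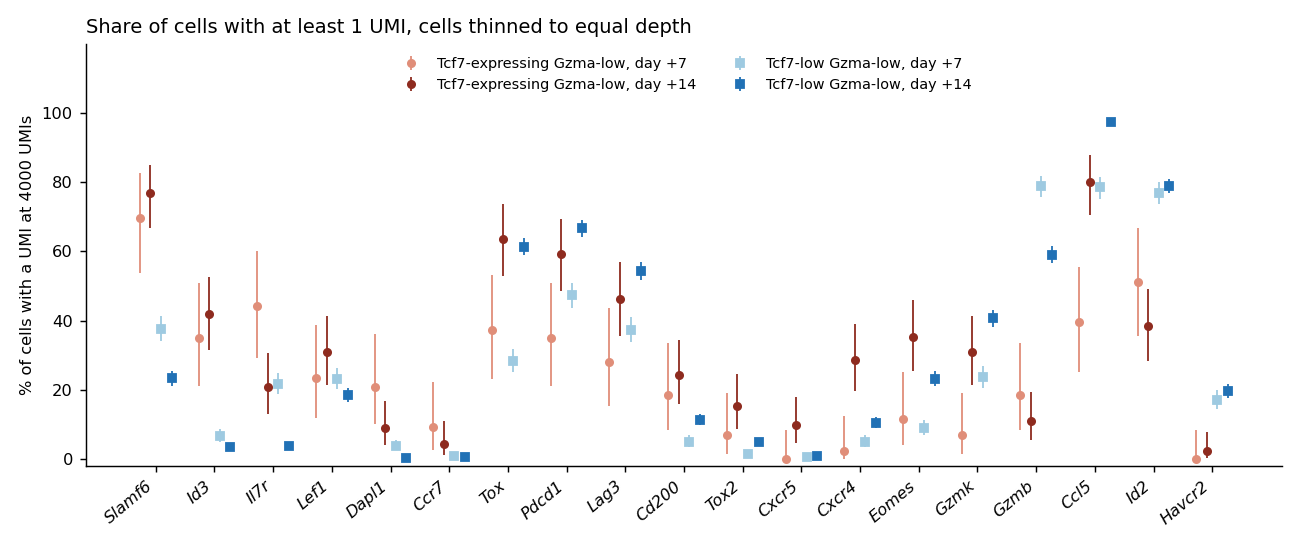
Percentage of cells with at least 1 UMI of each of 19 genes after thinning every cell to 4000 UMIs, in Tcf7-expressing (circles) and Tcf7-low Gzma-low (squares) CD8 T cells on day +7 (light) and day +14 (dark), with exact 95% binomial intervals. In Tcf7-expressing cells Il7r goes from 44.2% to 20.9% and Tox from 37.2% to 63.7%, while Slamf6 is at 69.8% and 76.9%.

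Tox, Tox2, Lag3 and Pdcd1 of the inhibitory list were at higher levels on day +14. Tox, the factor of sustained stimulation (chr4:6686353-6991557, minus strand), was at 134 CPM on day +7 (101 to 174, 27 of 46 cells) and 317 on day +14 (279 to 360, 79 of 94 cells), a log2 difference of 1.24 (0.82 to 1.70). Tox2 was at 9.71 CPM (4 UMIs) and 50 CPM (38 UMIs), a difference of 2.25 (interval of the plain ratio 0.89 to 4.31). Lag3, a receptor for MHC class II, was at 72.9 and 163 CPM, a difference of 1.15 (0.58 to 1.79), and Pdcd1, which encodes PD-1, at 175 (137 to 220) and 296 (259 to 338), a difference of 0.76 (0.37 to 1.16). Of 9 genes compared in the list, 7 were higher, 3 of them at least 2-fold, where 4048 of all 6646 genes were higher and 11.2% at least 2-fold higher, and Tigit and Ctla4 were lower, at 17.0 and 10.5 CPM and at 48.6 and 38.2 CPM. The list median was 0.69 in Tcf7-expressing, 0.83 in Tcf7-low and 0.78 in Gzma-high cells, against medians over all genes of 0.143, 0.203 and 0.153.

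Against Tcf7-low cells, the inhibitory genes did not fall on one side. Tox was at 108 and 288 CPM in Tcf7-low cells, close to 134 and 317 in Tcf7-expressing cells, and Pdcd1 at 196 and 350 against 175 and 296. Cd200, the ligand of an inhibitory myeloid receptor, was higher in Tcf7-expressing cells, at 48.6 and 79.0 CPM against 17.4 and 31.6, and Lag3 was lower, at 72.9 and 163 against 125 and 247. The ectonucleotidase Entpd1 (CD39) had 0 and 4 UMIs, against 20.3 and 34.2 CPM in Tcf7-low cells. By cells, a Pdcd1 UMI was found in 34.9% (21 to 50.9) and 59.3% (48.5 to 69.5) of the thinned Tcf7-expressing cells, and a Tox UMI in 37.2% (23.0 to 53.3) and 63.7% (53.0 to 73.6). Of the thinned erythroid-like barcodes, 1 of 63 held Tox and 0 held Pdcd1 on day +7, and 0 of 6 held either on day +14, which allows up to 45.9%, while unthinned 2 of 19 held Tox (10.5%) and 1 of 19 Pdcd1 (5.26%). Unthinned, the shares were 47.8% and 75.5% for Pdcd1 and 58.7% and 84.0% for Tox.

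Cxcr4 had the highest day ratio among the genes at 50 CPM or more. This receptor for the marrow and stromal chemokine CXCL12 had 2 UMIs on day +7 (4.86 CPM) and 62 UMIs in 43 cells on day +14 (81.7 CPM, 62.6 to 105), a log2 difference of 3.82 (interval of the plain ratio 2.16 to 7.15). It was at 10.8 and 33.2 CPM in Tcf7-low and at 10.1 and 24.4 in Gzma-high cells. On day +7, 1 of 43 thinned Tcf7-expressing cells (2.33%, 0.0589 to 12.3) and 1 of 63 erythroid-like barcodes (1.59%, 0.0402 to 8.53) held a Cxcr4 UMI. These intervals overlap, so that share was not told apart from background. Unthinned, the shares were 4.35% and 16.9% (13 of 77), at unlike median depths of 9148 and 31364 UMIs. At 4000 UMIs on day +14, 28.6% of the Tcf7-expressing cells and 0 of 6 erythroid-like barcodes held it, which allows up to 45.9%. Cxcr5, the follicle homing receptor (chr9:44511787-44561877, minus strand), was chosen after its values were seen: it had 1 UMI on day +7 (2.43 CPM) and 26 UMIs in 19 cells on day +14 (34.2 CPM, 22.4 to 50.2), against 1.55 and 1.96 CPM in Tcf7-low cells. The plain log2 ratio of the days was 3.82 with an interval of 1.21 to 9.18. At 4000 UMIs, Cxcr5 was found in 0 of 43 cells on day +7, which allows up to 8.22%, and in 9.89% on day +14, against 0.414% and 0.806% in Tcf7-low cells. Of the erythroid-like barcodes 0 of 63 and 0 of 6 held it, which on day +14 allows up to 45.9%. Of the 11 homing genes compared, 10 were higher on day +14, 3 of them at least 2-fold (Cxcr4, Cxcr5 and Cxcr6), with a list median of 0.20, which turned to -0.42 over the 4 and 14 cells without any UMI of the B cell, myeloid, erythroid or platelet lists. Of these 10, 3 lay under the median of all genes. Of all 6646 genes, 4048 were higher and 11.2% at least 2-fold higher. The adhesion genes Itga4 at 459 and 490 CPM, Selplg at 381 and 404 and Itgb7 at 199 and 227 differed by less than 0.20 on the log2 scale. Cxcr3, a receptor of type 1 effector and memory cells, was at 146 and 145 CPM.

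Memory and effector genes were mixed between the days. Cd7, an immunoglobulin family receptor, was at 75.3 CPM on day +7 (51.1 to 107, 15 of 46 cells) and 452 on day +14 (405 to 502, 66 of 94 cells), and Tcf7-low cells differed alike, at 106 and 924. Eomes, a T-box factor of memory cells, was at 36.4 and 98.8 CPM, and Gzmk, a granzyme of memory-type CD8 T cells, at 36.4 CPM (9 cells) and 117 CPM (45 cells). Ccl5 was higher on day +14 by 1.20 (1.06 to 1.33), at 571 UMIs in 20 cells and 2412 UMIs in 85 cells. This difference was 0.23 when the cells with any UMI of the B cell, myeloid, erythroid or platelet lists, Ighm and Igkc not counted, were left out, and 2 of 6 thinned erythroid-like barcodes held Ccl5 on day +14, and the part of free RNA in this value was not tested. Of 10 genes of the memory list, 4 were higher and 6 lower (median -0.10), and of 12 cytotoxic genes 6 were higher and 6 lower (median -0.02), with Gzmb differing by 0.00 and by -0.36 without the cell with most of its UMIs on each day.

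Effector transcription factors had a median of -0.11 over 10 genes, 3 higher and 7 lower. Runx3 was at 262 and 255 CPM, Batf at 253 and 232 and Id2 at 219 and 199. Zeb2 and Prdm1, factors of terminal effector cells chosen after their values were seen, went apart. Zeb2 had 1 UMI on day +7 (2.43 CPM) and 21 UMIs on day +14 (27.7 CPM), against 7.73 and 28.3 CPM in Tcf7-low cells. Prdm1 had 4 and 2 UMIs (9.71 and 2.63 CPM), against 22.6 and 40.1 CPM.

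Most of the interferon response genes compared were lower on day +14. Ifi27l2a, an interferon-induced mitochondrial protein, was at 2938 CPM (2775 to 3109) on day +7 and 953 (885 to 1026) on day +14, lower by 1.62 (-1.76 to -1.49). At 4000 UMIs it was found in 83.7% and 80.2% of the cells, shares too near their ceiling to show a difference, and in 1 of 63 and 1 of 6 erythroid-like barcodes. Isg15, a ubiquitin-like modifier, was at 65.6 CPM (12 cells) and 14.5 CPM (8 cells), and the ring finger protein gene Rnf213 at 72.9 and 23.7. At 4000 UMIs, an Isg15 UMI was found in 20.9% and 4.40% of the Tcf7-expressing cells and in 23.8% and 50% of erythroid-like barcodes, so shares for Isg15 are not above background. Of the 11 genes compared, from which the Ifitm genes of the rule were left out, 9 were lower and 2 higher, 3 of the 9 at least 2-fold, with a list median of -0.90. Of all 6646 genes, 2598 were lower and 3.20% at least 2-fold lower. Bst2, Zbp1 and Irf7, named after their values were seen, were at 177 and 89.6 CPM, 124 and 65.8, and 60.7 and 31.6, while Ifi203 was at 313 and 223.

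In the other CD8 T cells the interferon list lay at the median of all genes. Its median was 0.23 in Tcf7-low and 0.18 in Gzma-high cells, against 0.203 and 0.153 over all genes there, so that relative to all genes it was at 0.03 in Tcf7-low and at -1.04 in Tcf7-expressing cells. Ifi27l2a was lower on day +14 in those cells too, at 1158 and 767 CPM and at 918 and 690. On day +7 the 9 genes compared were all higher in Tcf7-expressing than in Tcf7-low cells, with a median of 1.08, and on day +14 3 were higher and 6 lower, with a median of -0.09. The Ifitm gate had left out 21 Tcf7-bearing cells on day +7 and 2 on day +14. Without the cells that held a UMI of other cell types, Ighm and Igkc not counted, 25 and 57 cells were left, and the list median was -0.50, the ratio of Ifi27l2a -1.27 and that of Isg15 -0.50. When Ighm and Igkc counted as well, 4 and 14 cells were left, and the list median turned to 0.90. The difference between the groups was not tested.

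Metabolic genes were followed because the study asks about the pentose phosphate pathway (PPP), which leaves glycolysis at glucose 6-phosphate and makes NADPH and ribose. All 17 glycolysis genes compared were higher on day +14, 8 of them at least 2-fold, with a median of 0.88. Of all 6646 genes, 4048 were higher and 11.2% at least 2-fold higher. Under median-ratio scaling the list median was 0.73. Gapdh was at 1214 CPM (1110 to 1325) and 1824 (1729 to 1923), Aldoa, aldolase, at 355 and 652, and Ldha, lactate dehydrogenase, at 359 and 604. Tpi1 (triosephosphate isomerase), Pgk1 and Pkm, chosen after their values were seen, were at 82.6 and 381 CPM, 177 and 466, and 243 and 577. The summed list was at 3079 CPM (2912 to 3253) and 5731 (5562 to 5904), a log2 difference of 0.90 (0.81 to 0.99). It was at 3274 and 5556 CPM in Tcf7-low cells and at 3319 and 3794 in Gzma-high cells, so Tcf7-expressing and Tcf7-low cells were at like levels on each day.

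Genes of the oxidative PPP did not follow. Pgd, the 6-phosphogluconate dehydrogenase that the study targets, was at 43.7 CPM on day +7 (25.9 to 69.1, 18 UMIs in 14 cells) and 31.6 on day +14 (20.3 to 47.0, 24 UMIs in 21 cells), a difference of -0.46 (-1.41 to 0.50) that counting error alone leaves without a direction. Pgls, the lactonase of the same branch, was at 236 and 217 CPM, G6pdx, its first enzyme, at 9.71 and 11.9 CPM (4 and 9 UMIs), and G6pd2 at 0. Summed, the branch was at 289 CPM (239 to 346) and 261 (226 to 300), a difference of -0.15 (-0.48 to 0.19), against 264 and 299 in Tcf7-low and 250 and 311 in Gzma-high cells. The non-oxidative branch was at 384 and 429 CPM, a difference of 0.16 (-0.12 to 0.45).

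Among the other lists, nuclear OXPHOS genes had a median of -0.03, with none of 77 at least 2-fold apart, mitochondrially encoded OXPHOS genes 0.05 (13 genes), cytosolic ribosomal protein genes -0.10 (84 genes), fatty acid oxidation genes 0.31 (11 genes), quiescence genes -0.06 (13 genes), survival and death genes 0.04 (10 genes), cytokine receptors 0.08 (10 genes), the GIMAP genes -0.02 (8 genes) and T cell receptor signalling genes 0.31 (9 genes). All 9 MHC class I genes were higher, with a median of 0.31, and all 9 costimulatory genes, with a median of 0.40, but 3 of each lay under the median of all genes and so were lower once the libraries were scaled to it. Among the costimulatory genes, Cd2 was at 301 and 402 CPM and Cd28 at 168 and 221, while Tnfrsf4 (OX40) and Tnfrsf9 (4-1BB), chosen after their values were seen, were at 29.1 and 109 and at 26.7 and 115. Cell cycle genes outside the rule had a median of -0.05 in Tcf7-expressing cells and 0.77 in Tcf7-low cells, with Hmgb2, a chromatin protein of dividing cells, at 901 and 828 CPM against 1346 and 1556.

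Early response genes, which cell isolation can also raise, had a median of -0.31 over 11 genes. Fos was at 53.4 CPM (33.5 to 80.9) on day +7 and 9.22 (3.71 to 19.0) on day +14, Junb at 350 and 233, and Dusp2, a nuclear phosphatase, went the other way at 119 and 191. Of the 4 heat shock genes compared 2 were higher and 2 lower, and the sum of that list was at 1333 and 1258 CPM. The 3 cytokine genes compared had a median of -0.20, with Ifng, chosen after its values were seen, at 85.0 and 73.7 CPM against 185 and 180 in Tcf7-low cells.

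The largest day ratios among genes at 50 CPM or more included genes of no list. On the higher side were Cxcr4 and Igkc, then Wipf3, a partner of WASP (3 UMIs and 46 UMIs in 26 cells, 7.29 and 60.6 CPM), Tspan3, a tetraspanin (17.0 and 125 CPM), Lysmd2 (12.1 and 84.3) and Cd7. Wipf3 was at 0 and 5.0 CPM in Tcf7-low and at 0 UMIs in Gzma-high cells on both days, and its plain log2 ratio of the days had an interval of 1.42 to 5.39. The others were Trerf1, Mt3 (a metallothionein), Lrpap1, Jak2 (a cytokine receptor kinase), Rc3h2 (Roquin-2) and Oxsr1, at 7.29 to 14.6 CPM on day +7 and 50 to 89.6 on day +14. In 6 of these 12 genes the sum of day +7 was 3 UMIs or fewer, so the size of their ratios was loosely set, although the intervals of these 6 lay above 2-fold.

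On the lower side were Fos, Isg15, Dapl1, Ifi27l2a, Rnf213, Arl4c, a small GTPase (97.1 and 22.4 CPM), Hist1h1c, a linker histone (82.6 and 19.8), Jaml, an adhesion receptor (70.4 and 19.8), Nr2c2ap (55.9 and 14.5) and Erh (65.6 and 19.8). The last was Gm42418, a gene model that overlaps ribosomal RNA, at 24126 and 8020 CPM. It was at 26318 and 8614 CPM in Tcf7-low cells and at 24615 and 8281 in Gzma-high cells, so all 3 groups differed alike, and the library and the day cannot be told apart here. It ranged from 114 to 1038 per 10000 UMIs in single cells on day +7 and from 19.0 to 298 on day +14.

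Pairs of genes in the same cell are given as a description, since at this depth most genes give 0 or 1 UMI and a joint share follows the shares of its genes. On day +7 16 of 43 thinned cells held only Il7r, 12 only Pdcd1 and 3 both. On day +14, 6 of 91 held only Il7r, 41 only Pdcd1 and 13 both, beside a Pdcd1 share of 59.3% over all thinned cells. Unthinned, 9 of 46 cells on day +7 and 22 of 94 on day +14 held both. Slamf6 and Pdcd1 together were found in 11 cells on day +7 (25.6%) and 44 on day +14 (48.4%). Pdcd1 and Tox together were found in 5 of 43 cells on day +7 (11.6%, 3.89 to 25.1) and in 39 of 91 on day +14 (42.9%, 32.5 to 53.7).

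From cell to cell, Slamf6 had a median of 3.33 per 10000 UMIs on day +7 (0 to 13.0) and 3.86 on day +14 (0 to 18.4). Tox went from a median of 1.15 to 2.65 and Pdcd1 from 0 to 2.16, whereas Il7r went from 1.15 to 0 with highest values of 13.9 and 17.1. Gzmb had a median of 0 on both days, and its highest cells held 7 and 23 UMIs. Ccl5 had medians of 0 and 8.77 and highest values of 154 and 280 per 10000 UMIs.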

How the data were processed

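Donor T cells of 2 libraries, 1 on day +7 and 1 on day +14, were analysed from UMI counts per gene and cell barcode, as deposited by the authors. Per the submitters' processing notes these were made with Cell Ranger 6.1.2 on mm10, and the deposited matrices held 7355 and 8043 barcodes and 32285 genes. Free RNA was not removed. The cells and gene lists were chosen with earlier results of these data known.

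Kept cells gave 86745047 and 83808218 UMIs, with medians of 9210 and 8144 a cell. UMIs of the chosen cells were summed per library and given as CPM with exact Poisson intervals, shares with exact Clopper-Pearson intervals, and ratios of 2 sums with exact conditional binomial intervals, all at 95%. Log2 ratios had 1 CPM added, and genes with a mean under 10 CPM were left out of counts. Genes that the rule counts were left out of list counts. Erythroid-like barcodes, the background for shares other than that of Isg15, had at least 20 hemoglobin and carbonic anhydrase UMIs per 10000 and no CD3 UMI.

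Named genes were the markers and the naive, memory, cytotoxic, inhibitory and oxidative PPP lists, the 12 highest and 12 lowest day ratios of genes that reached 50 CPM on either day, the 10 highest and lowest against each comparison group with the same limit on both days, and the 3 genes with most UMIs of any other list. Some genes that the rule names are not reported here. Others are said to be chosen after their values were seen. The symbol Aldoa is on 2 rows, of which the fuller was used. Gene positions are from the GENCODE annotation of mm10.

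Scrublet marked 0 barcodes at its thresholds of 0.596 and 0.599 and so did not work as a doublet caller. Leaving out the highest scores at an assumed 0.8% per 1000 barcodes would take 433 and 518 barcodes, and with those tied at the lowest score taken it left out 493 and 599, among them 0 and 3 of the chosen cells. Alternatives covered scaling, the added CPM, the filter on low values, thinning, the thresholds of the rule, doublet scores and cells with UMIs of other cell types. The code for ratios and intervals was tried on simulated Poisson counts drawn from a pooled profile. Such counts leave out the gathering of a gene's UMIs in single cells, so this checks the code and not the intervals of the real cells. Python 3.11.15, numpy 2.4.6, scipy 1.17.1, pandas 2.3.3, scanpy 1.11.5, anndata 0.12.19 and matplotlib 3.10.9 were used.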

Additional observations from a re-analysis of the deposited data

Results flagged for a closer look

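The median log2 day ratio of the interferon response list was -0.90 in Tcf7-expressing cells and 0.23 in Tcf7-low cells. Relative to the median of all genes in the same cells these were -1.04 and 0.03, so the list lay at the level of all genes in Tcf7-low cells, and the difference was not tested. The median of the cell cycle genes outside the rule was -0.05 in Tcf7-expressing cells and 0.77 in Tcf7-low cells, or -0.19 and 0.57 relative to all genes, and this difference was not tested either.

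Immunoglobulin transcripts, which belong to B cells, were present in the Tcf7-expressing cells. Igkc (chr6:70726435-70726966, plus strand, mm10) was at 26.7 CPM on day +7 (11 UMIs in 4 cells) and at 248 CPM on day +14 (213 to 286, 188 UMIs in 54 cells), against 110 CPM in Tcf7-low and 4074 CPM in Gzma-high cells on day +14, where 1 cell held 98.4% of the Igkc UMIs. At 4000 UMIs, Igkc was found on day +14 in 48.4% of the Tcf7-expressing cells, 28.9% of Tcf7-low cells and 16.4% of Gzma-high cells, so by cells the order was the reverse of that in CPM for the Gzma-high cells. On day +7 the share was lowest in the Tcf7-expressing cells, at 4.65% (0.568 to 15.8), against 10.5% of Tcf7-low and 6.99% of Gzma-high cells. Ighm (chr12:113418558-113422730, minus strand) was at 177 CPM on day +7 (139 to 223, 35 cells) and at 204 CPM on day +14 (173 to 239, 59 cells), against 140 and 39.0 CPM in Tcf7-low cells. At 4000 UMIs, Ighm was found in 55.8% and 46.2% of the Tcf7-expressing cells and in 1.59% of erythroid-like barcodes on day +7, and 0 of 6 of those barcodes held it on day +14, which allows up to 45.9%. The B cell genes Cd79a and Ms4a1 were at 0 UMIs in the same cells on both days, and Cd79b had 10 UMIs on day +7 and 1 on day +14. The part of free RNA and of doublets was not tested.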

How the results depend on the processing

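No paired analysis was possible because there is 1 library a day, and no replicate could be left out. The share of CD8 T cells, 0.817% on day +7 and 1.63% on day +14, was 0.337% and 1.13% with cells thinned to 4000 UMIs, 1.99% and 3.25% with at least 1 Tcf7 UMI, and 0.409% and 0.935% with at least 3, so its size depended on depth and on the Tcf7 threshold while day +14 was higher in each. The 744 genes at least 2-fold higher on day +14 became 85 at a mean of at least 50 CPM and 3035 with no filter beyond 1 UMI. The 213 at least 2-fold lower became 24 and 1187 under these filters, 443 with ribosomal, mitochondrial and rRNA-associated UMIs out of the total, 136 with 5 CPM added, 545 with cells thinned and 442 with at least 3 Tcf7 UMIs. Thinned, the genes 2-fold apart on both days were 61 higher and 81 lower against Tcf7-low cells (32 and 47 as reported), and 124 higher and 147 lower against Gzma-high cells (81 and 95). The causes were not tested.

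Leaving out every cell with a UMI of the B cell, myeloid, erythroid or platelet lists kept 4 and 14 cells, with 22753 and 72875 UMIs, too few to read single genes. There 2100 genes were 2-fold higher and 1613 lower, the list medians were -0.49 for cytotoxic genes, 0.48 for glycolysis and 0.90 for the interferon response, which turned, and the homing and ribosomal lists also turned, to -0.42 and 0.05. An alternative chosen after seeing the data, in which Igkc and Ighm did not count, kept 25 and 57 cells. It gave 512 genes 2-fold lower, turned Ly6a to 0.18 (from -0.27) and Nkg7 to -0.09 (from 0.20), and kept the interferon median below 0, at -0.50, with Tox at 1.08. The interferon median lay between -1.04 and -0.64 under the other settings. Of the single-gene day ratios under an alternative, 1286 stayed within the counting interval, 51 left it and 2 turned.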
